A study of Mus musculus with 12 samples.

Results

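The cells described here are the Kit+K5+ epithelial cells of the mouse submandibular salivary gland at embryonic day 15, set against both kinds of single positive cell. All animals carried the transgene Tg(KRT5-Venus)1Sgkd, in which the keratin 5 promoter drives the fluorescent protein Venus. E-cadherin-positive cells were divided in a flow cytometer by an antibody to Kit and by Venus. The Kit+K5+ group was positive for Kit and Venus, the Kit+K5- group for Kit only and the Kit-K5+ group for Venus only. Each had 3 libraries, so 3 of the 12 libraries of the series were the double positives and 9 entered the comparison. The Kit-K5- libraries were not analysed here beyond 1 alternative fit. The Kit+K5+ libraries were chosen by the sort labels alone and were compared with the mean of the Kit+K5- and Kit-K5+ groups, each group with equal weight. The question was whether the double positives lay between the single positives or held genes of their own. The gate for K5 read a transgene, so it follows promoter activity and the life of the Venus protein and not keratin 5 itself. The sources used here do not say how many embryos or litters went into a library, so p-values measure the spread between these samples, which may be technical.

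Kit is a receptor tyrosine kinase that binds stem cell factor, and in the developing salivary gland it marks epithelial progenitors of the distal end buds, from which acini form. Keratin 5, with its partner keratin 14, builds the intermediate filaments of basal cells and marks progenitors of the ducts. A cell that carries both markers could belong to a stage through which one lineage passes, or to a separate state with its own genes, and a bulk profile of sorted cells reads the average of all cells in the gate. In such bulk samples, fewer cells of a type and less RNA per cell cannot be told apart, and neither can an intermediate level in each cell and a mixture of cells.

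Reads were counted per gene, and values below are CPM, edgeR's counts relative to library size after scaling by the trimmed mean of M-values (TMM). The 9 libraries held 5589037 to 11391186 counts, of which the mitochondrially encoded genes took 23.7% ± 6.60 (SD, n = 3) of Kit+K5+, 17.2% ± 8.81 of Kit+K5- and 28.0% ± 3.32 of Kit-K5+ totals. Genes tested numbered 15633. Over these genes, log2 CPM of a Kit+K5+ and a Kit+K5- library correlated with a median r of 0.927 over 9 pairs, against 0.934 between Kit+K5+ libraries (3 pairs), 0.894 between Kit+K5+ and Kit-K5+ libraries and 0.879 between the single positives. These values are across genes, which are not independent replicates. For 3 of the 9 libraries the nearest library was of the same group. Kit+K5+ replicates 2 and 3 were nearest to the Kit+K5- libraries with the same replicate number. Replicate numbers follow runs of library numbers (1 to 4, 5 to 8 and 9 to 12), each of which holds every group, and libraries of a run deviated together from their group means. The fit with the run as a block, called the blocked fit below, is given beside results that it changes.

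The gate genes followed the sort labels for Kit and, more weakly, for K5. Kit (GRCm38, chr5:75574916-75656722) was at 321, 293 and 309 CPM in the Kit+K5+ libraries, 430.0, 291 and 271 CPM in Kit+K5- cells and 14.8, 25.4 and 24.6 CPM in Kit-K5+ cells. Kit+K5+ and Kit+K5- libraries overlapped, and all 6 were far above the Kit-K5+ libraries. Krt5 (chr15:101707070-101712898) was at 1.5, 9.59 and 4.12 CPM in Kit+K5+ cells, 0.306, 4.5 and 2.23 CPM in Kit+K5- cells and 22.2, 13.0 and 19.5 CPM in Kit-K5+ cells. Across runs the mRNA of keratin 5 in the double positives overlapped that of the Venus-negative Kit+K5- cells, and within each of the 3 runs it was higher in Kit+K5+. It lay below all Kit-K5+ libraries. Neither difference passed edgeR's quasi-likelihood test with Benjamini-Hochberg adjustment. The log2 difference was 1.11 ± 0.77 (SE) from Kit+K5- with an adjusted p of 0.954 (0.665 in the blocked fit), and -1.84 ± 0.76 from Kit-K5+ with an adjusted p of 0.267 (0.0834 in the blocked fit). Krt14, the partner keratin, was at 13.3, 63.8 and 38.5 CPM in Kit+K5+ and also overlapped Kit+K5- at 6.73, 86.6 and 44.8 CPM. Cdh1, which encodes E-cadherin, was at 1064, 732 and 513 CPM in Kit+K5+ cells, 877, 682 and 482 CPM in Kit+K5- cells and 639, 554 and 509 CPM in Kit-K5+ cells, and the 3 groups overlapped.

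Against the mean of the single positives, 1 gene of 15633 passed at an adjusted p under 0.05 (0.0064%), and it was the gate gene Kit, higher by 1.86 ± 0.21 on the log2 scale with an adjusted p of 0.0151. Kit was part of the sort and its own level is therefore a check of the labels. With edgeR's quasi-likelihood test 0 genes were lower (0%), where 693 were lower (4.43%) and 525 higher (3.36%) at an unadjusted p under 0.05. DESeq2 called 22 higher and 75 lower, and limma-voom called 1 higher and 0 lower. The blocked fit called 17 genes higher (0.109%) and 4 lower (0.0256%).

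A gene of the double positives' own had to be higher than each single positive group, or lower than each, with the larger of both p-values adjusted over all genes. By edgeR's quasi-likelihood test 0 genes were higher than each (0%) and 0 lower than each (0%), with and without the block. Genes that lay between the single positives stayed in the adjustment. With 3 libraries per group, 0 calls do not show that the double positives lack genes of their own. At a larger unadjusted p under 0.05, 43 genes were higher than each (0.275%) and 191 lower than each (1.22%). Without the filter on low counts the same test, over 35816 genes, called 5 higher, among them Pou2f3, Foxa1 and Csn1s1, and 11 lower. DESeq2 called 2 genes lower than each, Dock2 and Cacna1e, and limma-voom called 0. Without a test, every Kit+K5+ library lay above all 6 single positive libraries for 227 genes (1.45%) and below all 6 for 209 genes (1.34%). The Kit+K5+ mean lay above both single positive means for 4407 genes (28.2%), below both for 4845 (31%) and between them for 6381 (40.8%).

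Among the 227 genes highest in every double positive library (1.45% of genes tested) were the transcription factors Pou2f3, Foxa1 and Myb. The share of such factors in that set was not counted. Pou2f3 (chr9:43123939-43210369), a POU-domain factor known as the master regulator of tuft cells, was at 193, 106 and 72.6 CPM in Kit+K5+ cells, 45.5, 54.5 and 29.2 CPM in Kit+K5- cells and 9.73, 10.1 and 1.47 CPM in Kit-K5+ cells. All 3 double positive libraries were above all others. Its log2 difference from the mean of the single positives was 2.81 ± 0.42 with an adjusted p of 0.158, and 0.00293 in the blocked fit. Against Kit-K5+ alone it rose by 4.10 ± 0.57 (adjusted p 0.0266), and against Kit+K5- alone the difference of 1.52 ± 0.51 did not pass (adjusted p 0.827). Other genes of a tuft cell list did not stand out in the same way. Trpm5, the taste-type cation channel of tuft cells, was at 3.27, 5.31 and 2.0 CPM in Kit+K5+ cells and 5.71, 6.55 and 1.95 CPM in Kit+K5-, and Avil was at 4.33, 3.16 and 7.5 and 4.29, 3.89 and 2.51 CPM.

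Foxa1 (chr12:57540628-57546916), a forkhead factor that opens chromatin in endoderm and other epithelia, was at 653, 283 and 249.6 CPM in Kit+K5+, with replicate 1 the highest. The single positive libraries stayed within a narrow range, 170.3, 171 and 159.6 CPM in Kit+K5- cells and 129, 131 and 107 CPM in Kit-K5+ cells, and did not reach the double positives. The log2 difference from the mean was 1.47 ± 0.26 with an adjusted p of 0.268, and 0.0363 in the blocked fit. Among genes with a mean of at least 10 CPM in 1 group it had the smallest p for a gene higher than each single positive, at 0.00195 before adjustment. Myb (chr10:21124935-21160984), a factor of proliferating progenitors, was at 297, 157 and 148 CPM in Kit+K5+ cells, 126, 119.8 and 95.7 CPM in Kit+K5- cells and 66.9, 65.4 and 49.2 CPM in Kit-K5+ cells, again without overlap. It rose against Kit-K5+ by 1.73 ± 0.28 (adjusted p 0.0426), and its difference of 1.27 ± 0.23 from the mean passed in the blocked fit only (adjusted p 0.0202, and 0.268 without the block).

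Among products of secretory epithelium, Csn1s1 (chr5:87666208-87682578), which encodes the milk protein alpha-S1 casein, was at 118, 81.9 and 56.4 CPM in Kit+K5+ cells, 27.9, 46.7 and 29.7 CPM in Kit+K5- cells and 13.4, 20.9 and 5.33 CPM in Kit-K5+ cells. The double positive libraries lay above the rest. It rose against Kit-K5+ by 2.68 ± 0.44 (adjusted p 0.0426) and against the mean by 2.03 ± 0.26 in the blocked fit (adjusted p 0.00893), where the fit without the block gave an adjusted p of 0.268. Tst, the mitochondrial enzyme thiosulfate sulfurtransferase, was at 151, 98.8 and 77.9 CPM against 65.7, 50.1 and 52.5 CPM in Kit+K5- cells and 31.4, 54.6 and 31.6 CPM in Kit-K5+ cells, and its difference of 1.22 ± 0.25 from the mean did not pass (adjusted p 0.32).

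Promoters of genes that were highest in every double positive library are shown for the letters of motifs that belong to the families of Pou2f3 and Foxa1. Sequences are the 250 bases before the start that RefSeq gives on GRCm38.p6, 5′ to 3′ on the strand of the gene. Foxa1 covers chr12:57546112-57546361 on the minus strand and Csn1s1 covers chr5:87665958-87666207 on the plus strand. The Foxa1 window lies inside the gene span given above, which is from GENCODE and has a start further upstream. Capitals mark the reverse complement of the forkhead motif TGTTTAC in Foxa1 and of the POU octamer ATGCAAAT in Csn1s1.
Foxa1: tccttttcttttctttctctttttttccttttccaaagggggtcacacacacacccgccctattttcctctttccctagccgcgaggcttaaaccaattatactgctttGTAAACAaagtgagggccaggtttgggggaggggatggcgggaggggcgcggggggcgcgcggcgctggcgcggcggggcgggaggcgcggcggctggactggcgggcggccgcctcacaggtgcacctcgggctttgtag
Csn1s1: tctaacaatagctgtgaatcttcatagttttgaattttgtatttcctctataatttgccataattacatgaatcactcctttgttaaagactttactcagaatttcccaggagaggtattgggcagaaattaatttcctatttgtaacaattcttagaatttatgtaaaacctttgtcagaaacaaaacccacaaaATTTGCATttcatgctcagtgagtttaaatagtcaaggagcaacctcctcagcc
Both strands were searched, and these letters do not overlap. The octamer was in 1.60% of 32851 promoters of this length and in 1.31% of those of genes tested, and the forkhead motif in 3.17% and 2.13%. Of the 227 genes highest in every double positive library, 180 had entries with 225 promoters. Of these, 4 held the octamer (1.78%) and 7 the forkhead motif (3.11%). These shares are close to those of all promoters and above those of genes tested, on few promoters, and the difference was not tested. Of the 21 genes called in the blocked fit, 16 had entries with 20 promoters, of which 2 held the octamer and 2 the forkhead motif, too few to set against those shares. The promoters of Myb, Kit, Spdef, Cd44, Igfbp5 and Tfcp2l1 held no match, and Pou2f3 and Fst had no entry. A match describes these letters in this window and is not a binding site.

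A second set of genes was picked from those called against the mean in the blocked fit, which favours genes with the same order in each run. Its level also differed several-fold between runs. Sez6, a transmembrane protein first described in neurons, was at 139.5, 30.5 and 9.37 CPM in Kit+K5+ replicates 1, 2 and 3, 55.2, 25.2 and 4.74 CPM in Kit+K5- cells and 4.38, 0.265 and 0.184 CPM in Kit-K5+ cells. Padi2, a protein arginine deiminase, was at 187, 61.3 and 18.2 CPM, 92.0, 44.6 and 13.8 CPM and 18.6, 4.63 and 2.76 CPM in the same order. In every run the double positive library was highest, the Kit+K5- library next and the Kit-K5+ library lowest. Atp2a3, the calcium pump SERCA3 of the endoplasmic reticulum, was at 437, 179 and 98.2 CPM, 234, 125 and 64.5 CPM and 61.6, 44.7 and 14.5 CPM, with the same order in each run. Without the block their adjusted p-values against the mean were 0.52, 0.539 and 0.532, and with it they rose at 0.00293, 0.00299 and 0.00299. Spdef, an ETS factor of secretory epithelia, rose in the blocked fit as well (adjusted p 0.00618) but was close to Kit+K5-, at 74.4, 38.9 and 7.75 CPM against 53.5, 38.5 and 8.93 CPM. Levels of secretory genes also differed by run. Bpifa2, the salivary protein known as parotid secretory protein, was at 355, 24.4 and 0.375 CPM in Kit+K5+ cells, 4279, 177 and 0.977 CPM in Kit+K5- cells and 66.1, 0.662 and 0.919 CPM in Kit-K5+ cells, so replicate 1 was highest in each.

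**Figure D1:**
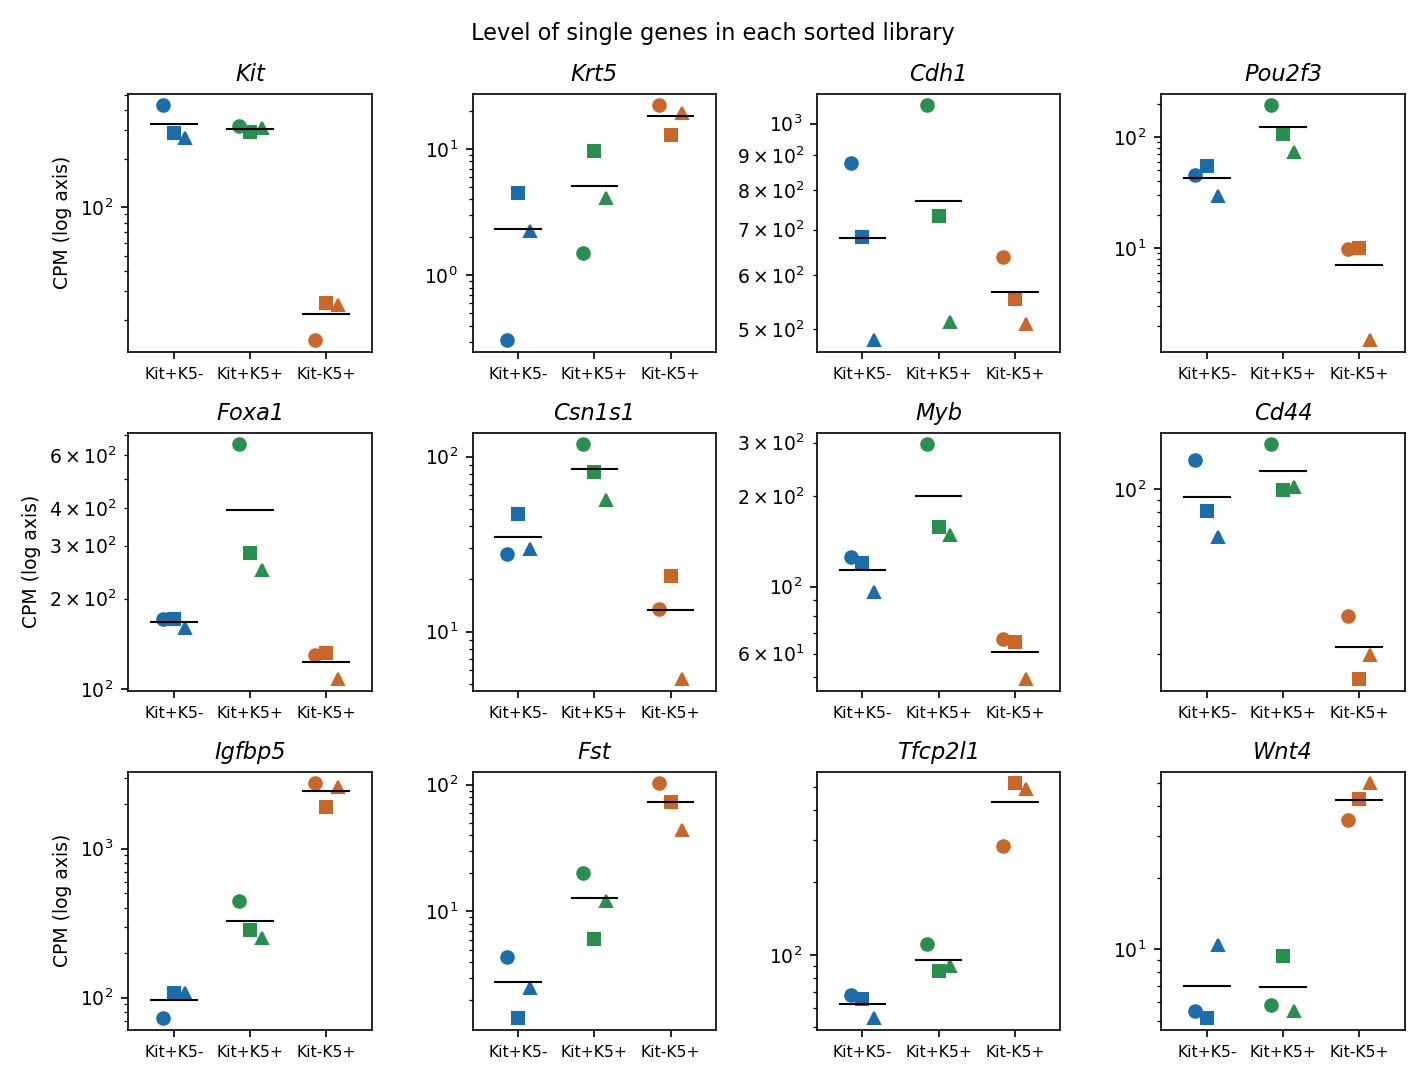
CPM after TMM scaling (log axis) of 12 genes in the 9 libraries. Circles, squares and triangles are replicates 1, 2 and 3, and lines are group means (n = 3). Pou2f3, Foxa1, Csn1s1 and Myb are highest in all 3 Kit+K5+ libraries, Kit and Cd44 are shared with Kit+K5-, and Igfbp5, Fst and Tfcp2l1 lie between the single positives, where Wnt4 overlaps Kit+K5-.

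Genes lowest in the double positives included genes of blood cells at low levels. Dock2, an activator of Rac in leukocytes, was at 0.442, 0.558 and 0.375 CPM in Kit+K5+ cells, 51.4, 5.12 and 6.98 CPM in Kit+K5- cells and 7.29, 3.31 and 8.45 CPM in Kit-K5+ cells. Dock10, a related exchange factor, was at 2.3, 2.05 and 2.12 CPM, 83.8, 11.2 and 20.9 CPM and 9.24, 4.37 and 15.3 CPM in these groups. Both were below every single positive library. Dock2 differed from the mean by -4.61 ± 0.87 with an adjusted p of 0.268, and fell in the blocked fit (adjusted p 0.0489). Against the mean, the blocked fit also called Laptm5, Srgn and Mcpt4 lower, genes of leukocytes and mast cells. They were higher in Kit+K5- cells, and the double positives were near Kit-K5+. Srgn was at 2.65, 0.558 and 0.75 CPM in Kit+K5+ and 2.07, 0.794 and 1.10 CPM in Kit-K5+. Laptm5 was at 5.65, 0.745 and 0.25 CPM in Kit+K5+ and overlapped Kit-K5+ at 9.60, 0.529 and 0.368 CPM. Mcpt4, a mast cell protease, was listed at 0 in all 3 Kit+K5+ libraries and at 0.851, 0.265 and 0 CPM in Kit-K5+. Nrros, a gene of myeloid cells, was at 0.177, 0.186 and 0 CPM in Kit+K5+ against 45.8, 7.57 and 5.02 CPM in Kit+K5-, and did not pass (adjusted p 0.408). At higher level, Nfkb1, a subunit of the transcription factor NF-kB, was at 38.9, 47.3 and 40.4 CPM in Kit+K5+ cells, 78.4, 67.3 and 56.8 CPM in Kit+K5- cells and 88.3, 68.4 and 53.7 CPM in Kit-K5+ cells. The Kit+K5+ libraries were below all others, and the difference of -0.71 ± 0.21 from the mean did not pass (adjusted p 0.532). Olfml3, a secreted matrix protein, was at 1.77, 2.98 and 2.12 CPM against 7.55, 6.34 and 3.49 CPM and 8.63, 13.8 and 9.19 CPM and did not pass either (adjusted p 0.517).

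A place between the single positives was read on the 191 genes (1.22%) called between them, 110 higher in Kit+K5- (0.704%) and 81 higher in Kit-K5+ (0.518%). The blocked fit called 575 (3.68%) and 403 (2.58%). Place is the distance of the Kit+K5+ mean from the midpoint on the log2 scale, in units of 0.5 times the difference between the single positives, so that 1 is the Kit+K5- mean, 0 the midpoint and -1 the Kit-K5+ mean. The contrast that measures the distance from the midpoint is orthogonal to the difference that chose the genes. That keeps the choice apart from the place only where libraries deviate independently. Within runs, deviations correlated at 0.296 to 0.413 between Kit+K5+ and Kit+K5- and at 0.114 to 0.177 between Kit+K5+ and Kit-K5+. The choice of genes can therefore bear on the place, and by how much was not tested. The double positives were nearer to Kit+K5- for 162 of the 191 genes (84.8%), against 61.9% of all genes tested. Kit, whose level the sort set, was among them, and without it the count was 161 of 190. They lay between the midpoint and the Kit+K5- mean for 139 genes, beyond that mean for 23, between the midpoint and the Kit-K5+ mean for 25 and beyond that one for 4. The median place was 0.43 with quartiles of 0.160 and 0.742. It was 0.49 over the genes higher in Kit+K5-, of which 89 of 110 were nearer to Kit+K5-, and 0.36 over those higher in Kit-K5+, with 73 of 81. Off the midpoint, 1 gene passed on the side of Kit+K5-, which was Kit, and 0 passed on the other side by edgeR's quasi-likelihood test. At an unadjusted p under 0.05 these were 58 and 5, with DESeq2 25 and 12, with limma-voom 1 and 0, and in the blocked fit 16 and 3 among its own genes. Without the 8 genes that stand in lists of other cell types, 160 of 183 genes were nearer to Kit+K5-. The 8 included Erbb3, which the epithelium also expresses, and genes of other cells outside the lists, such as Srgn, stayed in. The share nearer to Kit+K5- was 63.3% of 259 genes without Kit+K5- replicate 3 and 68.8% of 16 genes without Kit+K5- replicate 2, and 76.5% to 100% without any other single library.

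**Figure D2:**
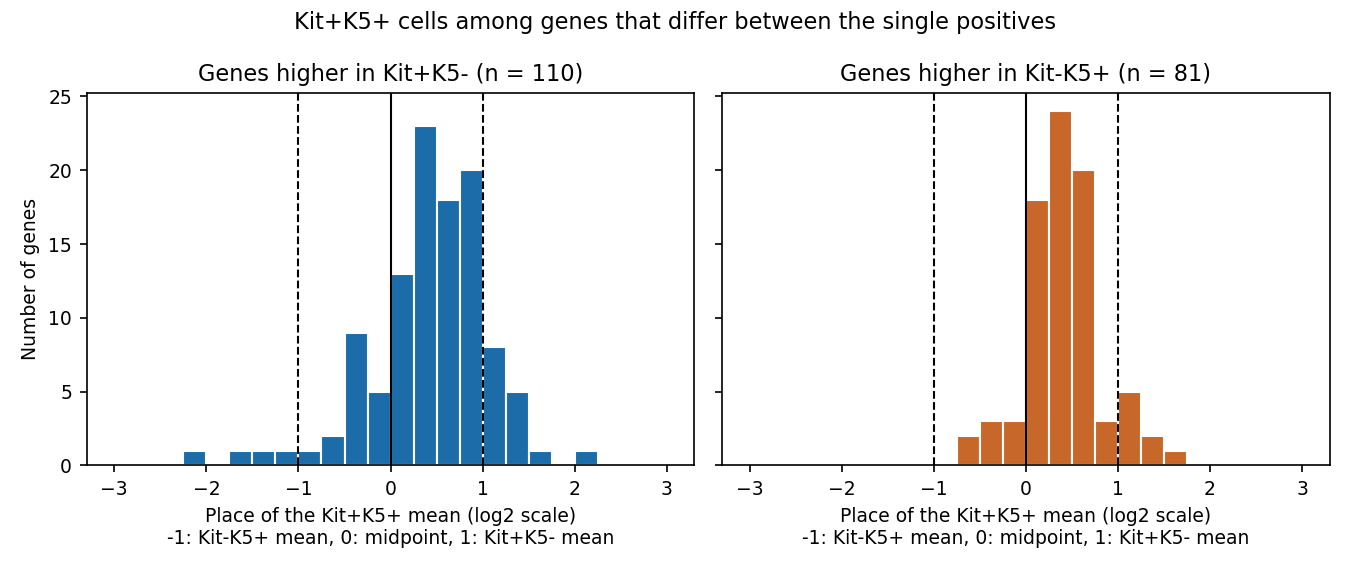
Place of the Kit+K5+ mean among the 191 genes called between the single positives (horizontal axis, log2 scale, -1 for the Kit-K5+ mean and 1 for the Kit+K5- mean) against the number of genes, in bins of 0.25. Genes higher in Kit+K5- (110, left) and in Kit-K5+ (81, right) both gather between the midpoint and the Kit+K5- mean, with medians of 0.49 and 0.36.

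Against each single positive alone the double positives differed from Kit-K5+ in more genes than from Kit+K5-. Against Kit-K5+, 17 genes rose (0.109%) and 10 fell (0.064%), and the blocked fit called 237 (1.52%) and 180 (1.15%). Of these 27 genes (0.173%), 23 were also called between the single positives, and the other 4 were Csn1s1, Myb, Bahcc1 and Spire1. Against Kit+K5-, edgeR's quasi-likelihood test called 0 genes (0%), with 769 (4.92%) at an unadjusted p under 0.05, 75 by DESeq2 and 0 by limma-voom. The blocked fit called 2 higher (0.0128%) and 36 lower (0.23%). Both comparisons share the Kit+K5+ libraries, and whether the effects differ was tested only through the distance from the midpoint.

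Among genes higher in Kit-K5+, the double positive mean was between the single positives for 73 of 81 and beyond the Kit+K5- mean for 8, and genes of secreted proteins were in both sets. Igfbp5 (chr1:72857932-72874884), a secreted protein that binds insulin-like growth factors, was at 448, 285 and 250.1 CPM in Kit+K5+ cells, 72.4, 107 and 108 CPM in Kit+K5- cells and 2749, 1908 and 2608 CPM in Kit-K5+ cells. The 3 groups did not overlap, and the place was 0.24. It was lower than in Kit-K5+ by -2.89 ± 0.29 (adjusted p 0.00195) and higher than in Kit+K5- by 1.74 ± 0.26 in the blocked fit (adjusted p 0.0227, and 0.168 without the block). Fst (chr13:114452290-114458951), which encodes follistatin, a secreted inhibitor of activin, had the same order at 20.2, 6.05 and 12.1, 4.39, 1.43 and 2.51 and 103, 73.3 and 43.9 CPM. It was the other gene that rose against Kit+K5- in the blocked fit (adjusted p 0.0303), and its place of 0.07 was near the midpoint. Slit2, a secreted guidance protein, was at 28.1, 18.0 and 30.0 CPM in Kit+K5+ between 12.5, 13.2 and 14.8 CPM and 114, 67.0 and 70.4 CPM. It fell against Kit-K5+ by -1.72 ± 0.28 (adjusted p 0.0426). Timp2, an inhibitor of matrix metalloproteinases, was at 43.4, 40.3 and 53.1 CPM between 19.0, 24.6 and 32.8 CPM and 138, 109 and 89.3 CPM without overlap.

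Other genes of the K5 side were at or near the level of Kit+K5- in the double positives, while Tfcp2l1 lay between the single positives. Wnt4, a secreted Wnt ligand, was at 5.83, 9.4 and 5.5 CPM in Kit+K5+ cells, 5.51, 5.12 and 10.5 CPM in Kit+K5- cells and 35.0, 43.0 and 50.0 CPM in Kit-K5+ cells, and fell against Kit-K5+ by -2.62 ± 0.37 (adjusted p 0.0268). Col11a1, a chain of a fibrillar collagen, was at 3.8, 3.91 and 4.12 CPM against 5.92, 3.07 and 5.72 CPM and 34.2, 37.2 and 30.5 CPM and fell by -3.10 ± 0.35 (adjusted p 0.0058). The actin-binding Synpo2, the zinc finger factor Bnc2, Itgb6 (an integrin chain) and Mgat3 (a glycosyltransferase) fell as well. Tfcp2l1 (chr1:118627945-118685168), a factor of duct and other epithelia related to grainyhead, was at 111, 85.5 and 89.8 CPM in Kit+K5+ cells, 67.8, 65.3 and 54.4 CPM in Kit+K5- cells and 282, 517 and 491 CPM in Kit-K5+ cells. Its double positive libraries lay above all Kit+K5- libraries and fell below Kit-K5+ by -2.17 ± 0.26 (adjusted p 0.00654), with a place of 0.56.

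Of the 110 genes higher in Kit+K5-, 15 were beyond the Kit+K5- mean, 74 between it and the midpoint, 17 on the other side of the midpoint and 4 beyond the Kit-K5+ mean. Those past the midpoint included Gzmb, Ikzf1, Srgn and Serpinb1a, which also fell against Kit+K5- in the blocked fit. Podxl, a sialomucin of apical membranes, was at 34.0, 33.1 and 31.1 CPM in Kit+K5+ against 45.2, 31.7 and 22.9 CPM in Kit+K5- cells and 4.38, 9.0 and 3.31 CPM in Kit-K5+ cells, a place of 0.98. It rose against Kit-K5+ by 2.54 ± 0.39 (adjusted p 0.0365). Eif4ebp2, an inhibitor of cap-dependent translation, rose by 1.33 ± 0.23 (adjusted p 0.0453) and had a place of 0.85. Cd44, a hyaluronan receptor, was at 155, 99.0 and 102 CPM in Kit+K5+ cells, 133, 80.6 and 62.7 CPM in Kit+K5- cells and 29.1, 15.6 and 19.8 CPM in Kit-K5+ cells. In each run the double positive library was the highest, and Cd44 rose by 2.46 ± 0.34 against Kit-K5+ (adjusted p 0.0266). Rassf6, a Ras-association protein, was at 50.5, 15.6 and 8.87 CPM, 17.8, 15.8 and 5.16 CPM and 0.365, 1.06 and 0.735 CPM in the same order of groups and rose against Kit-K5+ (adjusted p 0.0365). Aurkb, a kinase of chromosome segregation, and Cad, Shmt1 and Reep6 also rose against Kit-K5+. Nearer to the midpoint were Glrx, a glutaredoxin, at 16.5, 28.7 and 22.1 CPM between 42.6, 40.9 and 36.1 CPM in Kit+K5- cells and 9.85, 8.6 and 11.9 CPM in Kit-K5+ cells (place 0.16), and the RNA helicase Ddx39 (place 0.15). Ccnd1, the cyclin of early G1, was at 471, 706 and 463 CPM against 892, 860.0 and 638 CPM and 87.4, 259.7 and 169 CPM, with a place of 0.51 and no pass against either group. Calls of single genes rested on few libraries. Of 65 calls of named genes over all comparisons, 9 held without any 1 library. Those of the double positives among them were Igfbp5 and Kit against Kit-K5+, and the level of Kit was set by the sort.

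Single libraries were placed by the mean over the 191 genes. The Kit+K5+ libraries were at 0.452, 0.507 and 0.232, the Kit+K5- libraries at 1.19, 1.10 and 0.714 and the Kit-K5+ libraries at -1.18, -0.940 and -0.881. All 3 double positive libraries thus lay between the groups, on the side of Kit+K5-, and did not overlap either. The genes were called with these libraries, which fixes the ends. With genes called without the run of the library placed, the double positives were at 0.559 on 61 genes and at 0.603 and 0.633 on 2 genes each, of which 1 was Kit, whose level the sort set. With the 191 genes of smallest p without that run, they were at 0.521, 0.366 and -0.126. In this last reading Kit+K5+ replicate 3 lay on the side of Kit-K5+, and the Kit+K5- library of its run was at 0.303.

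**Figure D3:**
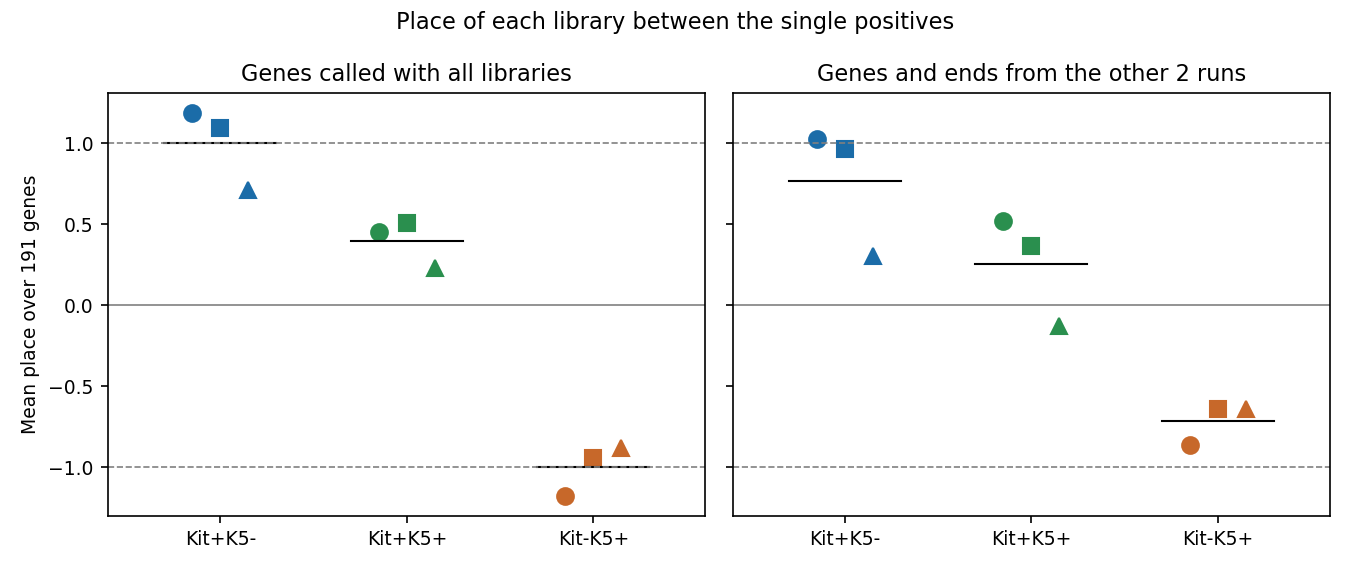
Mean place of each library over 191 genes (vertical axis, log2 scale, 1 for the Kit+K5- mean and -1 for the Kit-K5+ mean). Circles, squares and triangles are replicates 1, 2 and 3, and lines are group means. On the left the genes were called with all libraries, on the right genes and ends come from the other 2 runs, where Kit+K5+ replicate 3 moves from 0.232 to -0.126.

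Gene lists for cell types of the gland are described by how many members lay between the single positives (40.8% of all genes tested) and how many were nearer to Kit+K5- (61.9% of all). Over all genes tested, the median log2 difference was -0.02 from each single positive group and -0.01 from their mean. Of the list members, Kit, Myb, Cd44, Pou2f3 and Aurkb rose and Wnt4, Tfcp2l1, Igfbp5 and Col11a1 fell against Kit-K5+ by the adjusted test. The basal duct list (19 tested) had its double positive mean between the single positives for 16 genes and nearer to Kit+K5- for 18. Both counts include the gate gene Krt5. Its summed level was 1047, 1612 and 1621 CPM in Kit+K5+ cells, 541, 1401 and 1399.8 CPM in Kit+K5- cells and 3773, 2809 and 1969 CPM in Kit-K5+ cells. The median log2 difference was -1.41 from Kit-K5+ and 0.43 from Kit+K5-. Col17a1, the hemidesmosomal collagen, was at 34.0, 57.6 and 50.2 CPM against 7.35, 36.5 and 38.5 CPM in Kit+K5- cells and 296, 147 and 146 CPM in Kit-K5+ cells. Egfr, the receptor of epidermal growth factor, was at 56.2, 89.7 and 126 CPM between 31.9, 57.0 and 83.5 CPM and 264, 294 and 286 CPM, and Lama3, a laminin chain, at 18.6, 26.0 and 26.7 CPM between 5.51, 11.3 and 16.0 CPM and 199, 80.7 and 64.3 CPM. These fell against Kit-K5+ in the blocked fit only, at adjusted p-values of 0.0467, 0.0058 and 0.0328. Trp63, the basal factor p63, was at 72.2, 270.1 and 304 CPM in Kit+K5+ cells and 29.9, 274 and 332 CPM in Kit+K5-, so replicate 1 was low in both.

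Contractile genes of myoepithelial cells were nearer to Kit+K5- for 11 of 11 members, with a median log2 difference of -2.31 from Kit-K5+ and 0.05 from Kit+K5-. Acta2, smooth muscle actin, was at 40.2, 20.6 and 16.0 CPM in Kit+K5+ against 4.9, 12.3 and 13.8 CPM in Kit+K5- cells and 685, 119.9 and 25.4 CPM in Kit-K5+ cells, where 1 library was far above the others. Desmosome and stratified genes lay between for 9 of 13 members and nearer to Kit+K5- for 10. In the luminal duct list 17 of 19 members were nearer to Kit+K5-, and the median log2 difference from Kit-K5+ was 0.75. Its summed level in replicates 1, 2 and 3 was 1630, 868 and 614 CPM for the double positives. Kit+K5- libraries summed to 1462, 779 and 537 CPM, and Kit-K5+ libraries to 775, 1147 and 1274 CPM. The Kit-K5+ sum was thus lowest in run 1 and highest in runs 2 and 3. Tfcp2l1, a member of this list, fell against Kit-K5+, as given above. Cldn7, a tight junction protein, was at 48.8, 19.5 and 17.1 CPM in Kit+K5+ cells and 40.3, 29.8 and 14.4 CPM in Kit+K5- against 5.84, 2.38 and 3.12 CPM in Kit-K5+. General epithelial genes were nearer to Kit+K5- for 18 of 20, with a median log2 difference of 0.55 from Kit-K5+. Scaling the libraries to these genes set the median of all genes to -0.40 against Kit-K5+, with 13 genes called higher and 108 lower there. Under that scaling 14 of the 20 general epithelial and 15 of the 19 luminal genes were nearer to Kit+K5-, while the counts of 18 basal and 11 contractile genes were the same. The distal end bud list was mixed, with 11 of 18 members between and 11 nearer to Kit+K5-, the gate gene Kit among both. Sox10 and Sox9, factors of end bud progenitors, were at 72.1, 205 and 158 CPM and 168, 265 and 151 CPM in Kit+K5+ and overlapped both single positives. Acinar secretory genes lay between for 15 of 19, with 10 nearer to Kit+K5-, and progenitor genes for 9 of 17, with 10 nearer. Kit is in both progenitor counts as well. Scaled to general epithelial genes, 10 of 19 acinar genes lay between with 9 nearer, and 11 of 17 progenitor genes with 13 nearer. The sum of the tuft cell list was 268, 162 and 104 CPM in Kit+K5+ cells, 103, 99.9 and 54.7 CPM in Kit+K5- cells and 76.1, 59.4 and 41.0 CPM in Kit-K5+ cells, of which Pou2f3 made the largest part in Kit+K5+.

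Cell cycle genes are given by phase. Of 20 mitosis genes, the Kit+K5+ mean was above both single positive means for 16, between them for 4 and below both for 0, where 28.2% of all genes tested were above both. The summed level was 5276, 4972 and 6193 CPM in Kit+K5+ cells, 3963, 4347 and 4759.6 CPM in Kit+K5- cells and 3358, 4229 and 3862 CPM in Kit-K5+ cells, so that all 3 double positive libraries were above the other 6. The median log2 difference was 0.32 from Kit+K5- and 0.54 from Kit-K5+. Scaled to general epithelial genes, these medians were 0.39 and 0.18 with 12 of 20 above both means, and under this and upper-quartile scaling the sums overlapped. Ccnb1, the cyclin of entry into mitosis, was at 65.2, 58.6 and 84.6 CPM against 37.3, 44.9 and 48.3 CPM and 37.8, 47.8 and 47.6 CPM. Ccna2, a cyclin of S and G2 phase, was at 280.4, 285 and 280.2 CPM against 207, 243 and 244 CPM and 148, 211 and 155 CPM. With Kif11, a spindle motor, these 3 of the 20 were above all single positive libraries, as were 1.45% of all genes tested, and none of the 3 passed against the mean (adjusted p 0.532, 0.544 and 0.532). Outside the list, Sgol2, a protector of centromeric cohesion, was at 73.4, 71.0 and 61.7 CPM against 32.4, 45.2 and 45.1 CPM and 36.2, 37.8 and 38.8 CPM. Dbf4, the activating subunit of a kinase that fires replication origins, was at 90.1, 94.4 and 99.1 CPM against 53.3, 57.5 and 65.9 CPM and 48.5, 60.6 and 62.5 CPM. Both were above all other libraries and did not pass (adjusted p 0.408 and 0.517). DNA replication genes instead lay between the single positives for 17 of 24 and nearer to Kit+K5- for 22. Their sum was 2374, 2414 and 2256 CPM in Kit+K5+, overlapping 2511, 2899.9 and 2207 CPM in Kit+K5- and above 1169, 1614 and 1609 CPM in Kit-K5+, and 18 of 24 were nearer to Kit+K5- when scaled to general epithelial genes. Mcm5, a subunit of the replicative helicase, was at 83.2, 80.1 and 81.5 CPM, 112, 126 and 83.0 CPM and 42.6, 50.9 and 29.8 CPM in this order of groups.

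**Figure D4:**
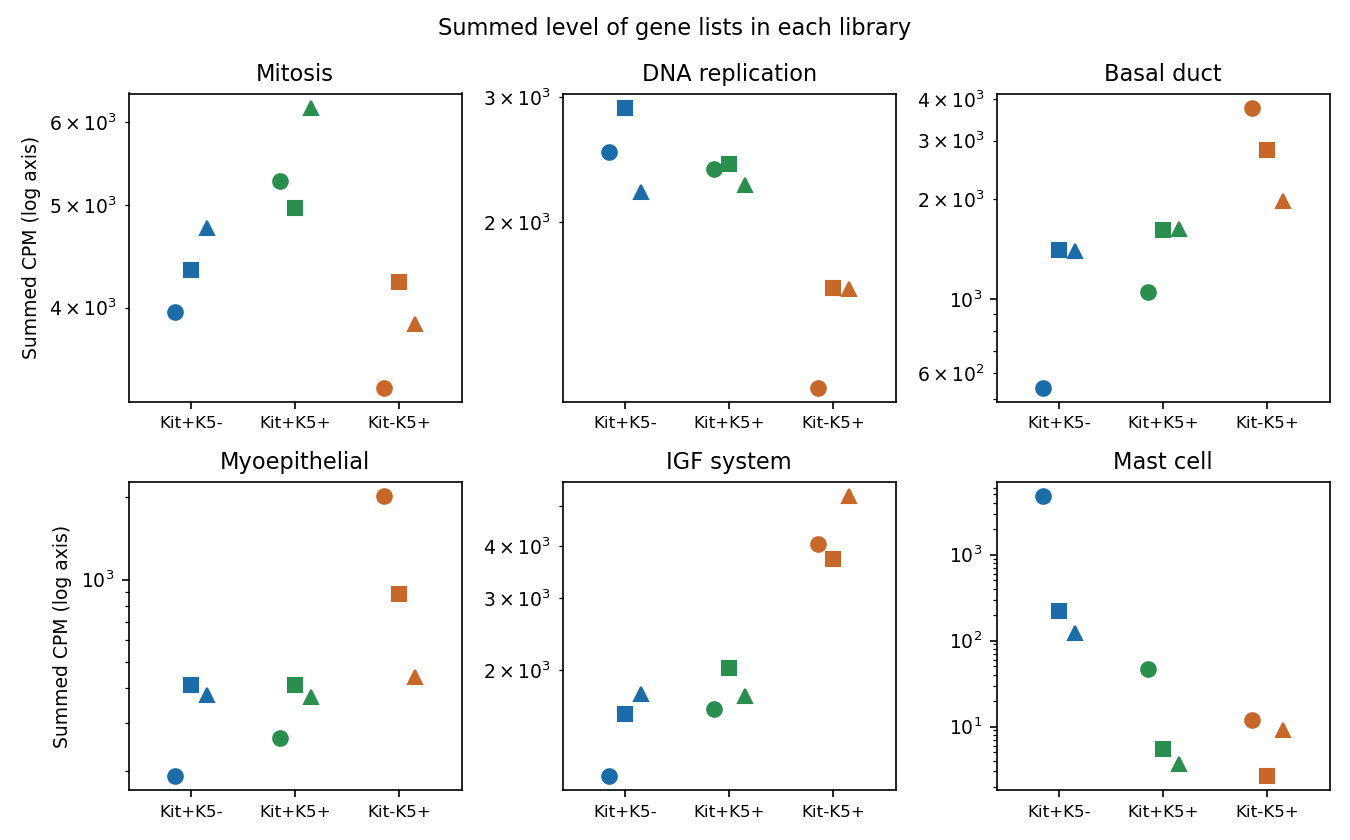
Summed CPM (log axis) of the genes of 6 lists in each library. Circles, squares and triangles are replicates 1, 2 and 3. Mitosis genes are highest in all 3 Kit+K5+ libraries (under upper-quartile scaling and scaling to general epithelial genes they overlap). DNA replication and IGF system genes overlap Kit+K5-, and mast cell genes are lower in Kit+K5+ than in each Kit+K5- library. Igfbp5 makes a large part of the IGF sum in Kit-K5+.

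Signalling lists were read in the same way. The IGF system summed to 1614, 2030.0 and 1734 CPM in Kit+K5+ cells and 1108, 1568 and 1752 CPM in Kit+K5- against 4057, 3728 and 5298 CPM in Kit-K5+, and 8 of 11 members were nearer to Kit+K5-. Igfbp5 made a large part of the gap in these sums, at a mean of 328 CPM in Kit+K5+ against 2422 CPM in Kit-K5+. The median log2 difference of the list from Kit-K5+ was 0.04, and -0.46 when scaled to general epithelial genes. The FGF and ERK response list lay between for 14 of 18 members, with 9 nearer to Kit+K5-. In the ERBB list 7 of 9 were nearer, and Erbb3, a receptor of neuregulins, was at 257, 165 and 174 CPM against 177, 195 and 166 CPM in Kit+K5- cells and 71.0, 95.7 and 82.3 CPM in Kit-K5+ cells. In the Wnt list 10 of 14 were nearer, and Lgr6, a receptor of R-spondins, was at 12.1, 9.31 and 6.12 CPM against 3.16, 3.38 and 2.09 CPM and 103, 28.3 and 3.68 CPM. Notch genes were nearer to Kit+K5- for 9 of 14, with Notch1 at 264, 346 and 366 CPM in Kit+K5+ cells, 226, 287 and 285 CPM in Kit+K5- cells and 290.3, 308 and 229.7 CPM in Kit-K5+ cells. Hedgehog and ectodysplasin genes were nearer for 4 of 9, and Smo, the Hedgehog signal transducer, overlapped in all groups. Basement membrane genes lay between for 15 of 22 with 16 nearer, folding and secretion genes of the endoplasmic reticulum for 18 of 20 with 12 nearer, and genes of dissociation stress for 11 of 19 with 12 nearer. Scaled to general epithelial genes, the numbers nearer were 6 for IGF, 13 for FGF and ERK, 6 for Notch, 8 for Hedgehog and ectodysplasin, and 7 for folding and secretion, so these counts depend on the scaling. The number between fell to 10 of 20 for folding and secretion under that scaling, and to 6 of 19 for dissociation stress under upper-quartile scaling.

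Against Kit+K5-, the genes that fell in the blocked fit were those of mast cells and leukocytes for 11 of 36 by the lists used, and others of the 36, such as Srgn, Csf2rb and Lcp2, are also known from blood cells. The mast cell list summed to 46.1, 5.49 and 3.62 CPM in Kit+K5+ cells, 4799, 218 and 122 CPM in Kit+K5- cells and 11.8, 2.65 and 9.0 CPM in Kit-K5+ cells. Mast cells carry Kit at their surface. Cpa3, the mast cell carboxypeptidase, was at 27.5, 1.68 and 0 CPM in Kit+K5+ against 2041, 101 and 73.3 CPM in Kit+K5-, where replicate 1 was far above the other libraries. The leukocyte and macrophage list summed to 49.6 to 59.4 CPM in Kit+K5+ cells, 106 to 534 CPM in Kit+K5- cells and 55.9 to 73.4 CPM in Kit-K5+ cells. The double positives were nearer to Kit+K5- for 0 of 7 mast cell and 1 of 9 leukocyte genes. The mast cell genes Mcpt4 and Fcer1a and the macrophage gene C1qa were at 0 in all Kit+K5+ libraries, while other members of these lists were detected. The part of these cells in the differences from Kit+K5-, and in the genes lowest in the double positives, was not tested.

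Sums over genes of the remaining cell types overlapped between the double positives and both single positives, except that Kit+K5+ was above Kit-K5+ for glia and below it for melanocytes, and below Kit+K5- for neurons. The sums in Kit+K5+ were 649.6 to 1015 CPM for mesenchyme, 376 to 413 CPM for Schwann cells and glia, 9.8 to 75.7 CPM for skeletal muscle, 15.9 to 18.3 CPM for red cells, 7.86 to 20.7 CPM for endothelium and 4.86 to 9.0 CPM for melanocytes. In Kit+K5- they were 606 to 938, 374 to 427, 10.1 to 91.7, 11.1 to 21.4, 8.29 to 21.1 and 6.75 to 25.8 CPM in this order, and in Kit-K5+ cells 906 to 1201, 193 to 351, 24.3 to 69.7, 11.9 to 24.9, 10.5 to 24.4 and 9.24 to 13.6 CPM. The glial sum includes Erbb3 and Sox10, which the epithelium also expresses. Neuron genes summed to 3.09 to 5.77 CPM in Kit+K5+, below 7.47 to 16.0 CPM in Kit+K5- and overlapping 4.9 to 16.2 CPM in Kit-K5+. Myod1, Slc45a2 and Hba-a2 were at 0 in all Kit+K5+ libraries, 1 member each of lists of 7 muscle, 7 melanocyte and 8 red cell genes. Other members were detected, as the sums show, so these zeros do not show that such cells were absent.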

How the data were processed

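Epithelial cells of the embryonic submandibular gland were sorted, and total RNA was sequenced as single reads of 50 nt. Per the labels' protocols, the authors mapped reads to GRCm38 with STAR 2.4.2a, and the deposited values are whole-number read counts per gene from featureCounts. Versions in the submitters' processing notes are Picard 1.129, featureCounts 1.4.6-p3 and build GRCm38.p3. Strand setting and annotation release were not given in the sources used here. Therefore overlapping and antisense genes cannot be told apart. The table held 43280 symbols, of which 39469 matched GENCODE M21, the source of positions. The series table and the single tables differed in 0 cells.

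The 9 libraries entered edgeR 4.0.16 (R 4.3.3, limma 3.58.1) with filterByExpr (15633 genes), TMM scaling and a quasi-likelihood fit with 1 coefficient per group and 6 residual degrees of freedom. Adjusted p-values are from edgeR's quasi-likelihood test with Benjamini-Hochberg adjustment over all genes tested, at 0.05. The contrast gives each single positive group a weight of 0.5. Standard errors of log2 values were derived from the F statistic. The fit was also run on simulated counts that held no run effect and no difference between the single positives, unlike these data. CPM are values after TMM scaling, and log2 CPM used a prior count of 2.

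Runs of library numbers (1 to 4, 5 to 8, 9 to 12) contain all groups. Whether a run was 1 sort is not in the labels, and the pairing was read from the data. Deviations from group means correlated within runs at 0.296 to 0.413 between Kit+K5+ and Kit+K5-, 0.114 to 0.177 between Kit+K5+ and Kit-K5+ and 0.138 to 0.370 between the single positives. All 9 were over 0.1, the limit set for treating runs as pairs. Between runs they were -0.392 to 0.180.

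The comparison and 29 gene lists (9 for other cell types) were chosen with earlier results of these data known. Named genes were the gate genes, the called genes of smallest adjusted p with a mean of at least 10 CPM in 1 group (up to 10 per direction, and where fewer than 5 passed, up to 5 by smallest p), those off the midpoint and up to 4 members of each list. Not all 80 are written out. Genes called in the blocked fit or against a single group, and other members of the lists, were picked after their values were seen. Alternatives were DESeq2 1.42.0, limma-voom, other scalings and filters, all 12 libraries, the block, thinning, and leaving out each library or run. Placing libraries by smallest p or without the listed genes of other cell types was added after seeing the data.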

Additional observations from a re-analysis of the deposited data

How the results depend on the processing

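Counts of genes called are given in this order: Kit+K5+ against the mean, against Kit+K5-, against Kit-K5+, between the single positives, higher or lower than each, and off the midpoint. The fit as reported gave 1, 0, 27, 191, 0 and 1. DESeq2 gave 97, 75, 677, 954, 2 and 37, no filter on low counts (35816 genes tested) gave 229, 205, 914, 1192, 16 and 123, and the replicate block gave 21, 38, 417, 978, 0 and 19. The 16 genes included Hsdl1, Pou2f3, Foxa1, Fam167a and Csn1s1 as higher and Dock2, Cacna1e and Dock10 as lower. Of the 97, 13 were also called with the block. Scaling to general epithelial genes gave 4, 29, 121, 180, 0 and 3, and set the median log2 difference of all genes from the mean to -0.17. Of its 180 genes, 37 were higher in Kit+K5- and 143 lower. All 12 libraries gave 112 genes against Kit-K5+ and 454 between the single positives. Limma-voom gave 109 between the single positives, and upper-quartile scaling 17 against Kit-K5+. The other counts under these settings, and all counts under RLE scaling, library sizes without mitochondrial genes, a filter of 5 CPM in 3 libraries and thinning, stayed within 1.5 times. The cause was not tested.

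Leaving out 1 library or 1 run gave 0 to 2, 0 to 7, 0 to 107, 2 to 259, 0 and 0 to 1 calls in that order. Kit lost its call against the mean without any single Kit+K5+ library, without Kit+K5- replicate 2, without run 2 or 3, and when scaled to general epithelial genes (adjusted p 0.0513), while its log2 difference stayed at 1.74 to 1.94 in these fits against 1.86, and there were 2 genes without Kit-K5+ replicate 3. Against Kit+K5- there were 5 and 7 genes without Kit+K5- replicate 2 and 3, 1 with Kit-K5+ replicate 2 or 3 left out and 3 without run 1. Against Kit-K5+ there were 107 genes without Kit+K5- replicate 1, 2 without Kit+K5+ replicate 2, 5 to 16 without any other library, and 11, 0 and 2 without run 1, 2 and 3. Between the single positives there were 12 without Kit-K5+ replicate 1 or 2, 16 without Kit+K5- replicate 2, 51 without Kit+K5+ replicate 2, 85 when Kit+K5- replicate 1 was left out, 109 when Kit-K5+ replicate 3 was, and 61, 2 and 2 without run 1, 2 and 3. With fewer libraries fewer degrees of freedom remain. The place of Kit+K5+ replicate 3 moved from 0.232 to 0.633 with genes called without its run and reversed to -0.126 with the 191 genes of smallest p. Of 1650 values of single genes under alternatives, 0 reversed, 482 lost and 23 gained a call. Thinning every library to the 5589037 counts of the smallest left 235 genes called between the single positives.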
